A study of Bos taurus with 10 samples.

Results

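The nuclear-encoded genes of the mitochondrial respiratory chain were taken from the deposited table by symbol: every row whose name begins with Nduf followed by a, b, c, s or v, with Uqcr, with Cox and a digit of 4 to 8, or with Atp5, together with Sdha, Sdhb, Sdhc, Sdhd, Cyc1 and Cycs. That gave 94 of 21130 rows. Of these, 83 encode structural subunits or cytochrome c: 36 of complex I, 4 of complex II, 9 of complex III, 18 of complex IV, 15 of complex V and Cycs. The other 11 matched by name only. They are 7 complex I assembly factors (Ndufaf1 to Ndufaf7), the supercomplex factor Cox7a2l, the Ndufa4 paralog Ndufa4l2, and Atp5s and Atp5sl, which are not structural subunits. Ndufa4 was counted with complex IV, where the human protein is placed.

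The chain sits in the inner mitochondrial membrane. Complexes I and II pass electrons from NADH and succinate to coenzyme Q, complex III passes them on to cytochrome c, and complex IV hands them to oxygen. Complex V, the ATP synthase, uses the proton gradient that complexes I, III and IV build. Several complex IV subunits exist as pairs of isoforms from separate genes, and in mammals Cox6a2, Cox7a1 and Cox8b are the forms of heart and skeletal muscle.

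The labels describe muscle mRNA of cattle 24 months old: 7 libraries labelled MSTN+/-, heterozygous for MSTN, which encodes myostatin, a brake on muscle growth, and 3 labelled wild type. The series was designed to compare these genotypes. The labels do not say how many animals were used, and replicate numbers here only name libraries, so p-values measure the spread between libraries, which may be technical. Levels are FPKM, read fragments scaled to transcript length and to the mapped total of a library.

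The contents did not match the labels. For the 94 rows, the description named Mus musculus in 90 and was blank in 4, 0 of their 122 transcript accessions were in a cattle RefSeq table, and groups are therefore named by their labels only. Of 15 skeletal muscle markers, 2 were at 1 FPKM or more in every library and 4 in none, and their summed level was 27.0 to 58.7 FPKM among MSTN+/- libraries, against 40.0, 174 and 143 FPKM in wild-type replicates 1, 2 and 3. Mylpf, a myosin light chain gene, gave most of the sums of wild-type replicates 2 and 3. It was at 6.24 to 26.7 FPKM among MSTN+/- libraries, against 0.75, 155 and 125 FPKM in wild-type replicates 1, 2 and 3. In wild-type replicate 1 the actin gene Acta1 was the highest of the 15, at 24.4 FPKM. The myosin heavy chain gene Myh2 was called higher, at 5.73 to 15.3 FPKM, against 0.14, 0.02 and 0 FPKM (log2 change 3.52, limma adjusted p = 4.42e-06). Ckm, the muscle creatine kinase gene, was at 0.14 to 1.02 FPKM among MSTN+/- libraries, against 0.13, 0.36 and 1.07 FPKM in wild-type replicates 1, 2 and 3. Summed markers of heart muscle stayed at 2.3 to 5.9 FPKM and those of brown fat at 0 to 1.6 FPKM over all libraries. Mstn itself was at 0 to 0.18 FPKM among MSTN+/- libraries, against 0.03, 0 and 0 FPKM in wild-type replicates 1, 2 and 3, too low to check the labels. The 3 wild-type libraries also differed from one another. The summed level of 10 pluripotent cell markers was 906 to 1562 FPKM among MSTN+/- libraries, against 2.3, 2711 and 3095 FPKM in replicates 1, 2 and 3 of wild type. Single markers went different ways: Pou5f1 was at 633 to 848 FPKM among MSTN+/- libraries, against 0.38, 346 and 533 FPKM, but Nanog was at 5.95 to 55.0 FPKM, against 0.91, 234 and 177 FPKM. The summed level of 10 fibroblast markers was 4690 to 8650 FPKM among MSTN+/- libraries, against 9729, 950 and 746 FPKM in those wild-type replicates. Results are therefore also given against wild-type replicate 1 alone and against replicates 2 and 3. FPKM totals were 444318 to 464418 in the MSTN+/- libraries and 402716 to 454617 in wild type, and the spacing of the lowest values put relative depth at 1 to 1.2 times that of MSTN+/- replicate 1, while absolute depth is unknown.

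The chain as a whole was lowest in wild-type replicate 1, highest in wild-type replicates 2 and 3, and in between in the MSTN+/- libraries. The 94 genes together made up 1.96% to 2.08% of summed FPKM among MSTN+/- libraries, against 1.75%, 2.40% and 2.40% in wild-type replicates 1, 2 and 3. Of the 80 structural genes that passed the low-value filter (1 FPKM or more in at least 3 libraries), 53 were lowest in wild-type replicate 1 and 21 in MSTN+/- replicate 7, while 26 were highest in wild-type replicate 2 and 21 in replicate 3. Over all 91 members that passed the filter, wild-type replicate 1 was the lowest library for 60, against 31.3% of all genes tested, and wild-type replicates 2 and 3 both lay above the other 8 libraries for 42, against 29.4%. The summed pluripotent cell markers followed the same order, with 8 of the 10 highest in wild-type replicate 2 or 3 and Pou5f1 and Sox2 highest in MSTN+/- replicate 7. The summed fibroblast markers ran the other way, with 6 of the 10 highest in wild-type replicate 1, while Dcn, a matrix proteoglycan gene, was at 169 to 324 FPKM among MSTN+/- libraries, against 24.3, 33.02 and 8.27 FPKM in wild type. The part of these markers in the order of the libraries was not tested. In bulk RNA, fewer cells of a type and less RNA per cell cannot be told apart.

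The complexes were not equally placed between those extremes. Summed over its 36 subunits, complex I reached 2283 to 2509 FPKM among MSTN+/- libraries, against 1720, 2495 and 2458 FPKM in replicates 1, 2 and 3 of wild type. The MSTN+/- mean was thus 1.41 times wild-type replicate 1 and 0.979 times the mean of replicates 2 and 3. Complex III, the cytochrome bc1 complex, reached 925 to 1061 FPKM in the MSTN+/- libraries, against 747, 1182 and 1194 FPKM in wild type. Complex IV, cytochrome c oxidase, reached 2050 to 2302 FPKM against 1674, 2728 and 2748 FPKM. All 7 MSTN+/- libraries lay between wild-type replicate 1 and replicates 2 and 3 for both of these complexes, and also for complex V.

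Complex V had the highest sum, 2610 to 3061 FPKM in the MSTN+/- libraries against 2504, 3931 and 3896 FPKM in replicates 1, 2 and 3 of wild type, and the MSTN+/- mean was 0.749 times that of wild-type replicates 2 and 3. Complex II, succinate dehydrogenase, was at 251 to 304 FPKM among MSTN+/- libraries, against 250, 293 and 308 FPKM in wild type. Of the complexes it varied least between wild-type libraries, with the mean of replicates 2 and 3 at 1.2 times replicate 1. Cycs, the mobile carrier cytochrome c, was at 17.7 to 31.0 FPKM among MSTN+/- libraries, against 32.4, 37.5 and 37.9 FPKM in wild type, without overlap, but was not called (log2 change -0.39 ± 0.16, SE, limma adjusted p = 0.0753). It was called lower against wild-type replicates 2 and 3 (-0.46, limma adjusted p = 0.0366), with median-of-ratios scaling (-0.59, 0.0112) and with TPM rescaling (-0.45). Scores over the members were given no test.

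**Figure D1:**
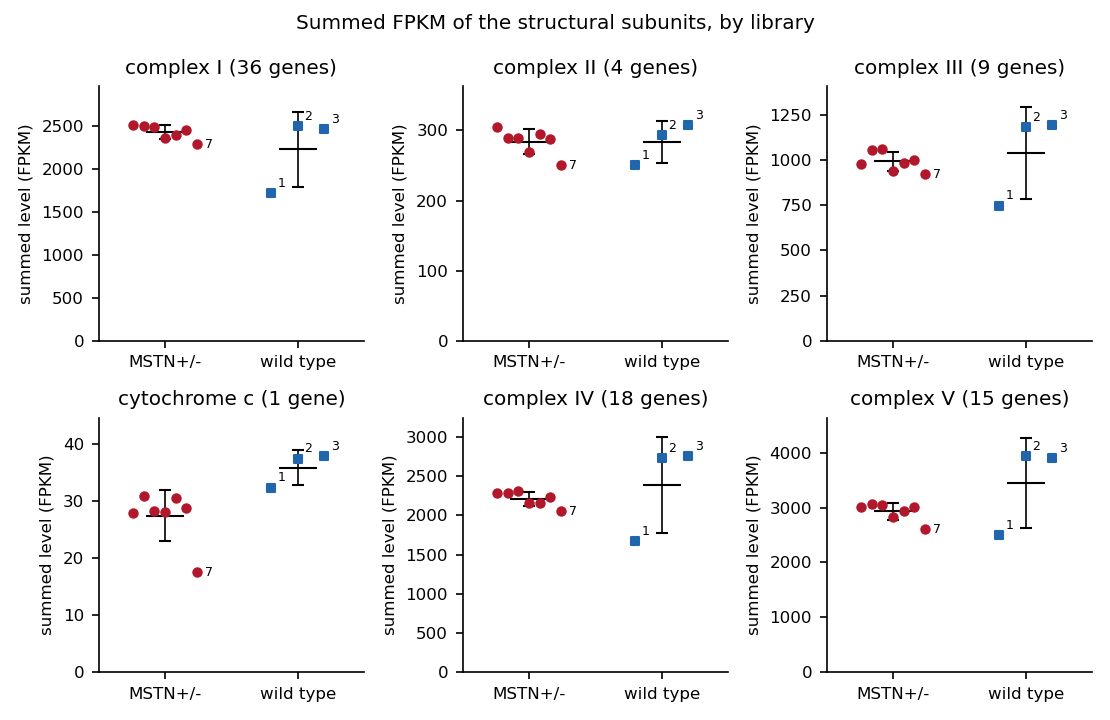
Summed level in FPKM (y axis, from 0) of the structural subunits of each complex and of cytochrome c, with MSTN+/- libraries as circles from replicate 1 at the left to replicate 7 at the right, wild-type libraries as numbered squares, and bars for the mean and SD. In complexes III, IV and V the MSTN+/- libraries sit between wild-type replicate 1 and wild-type replicates 2 and 3, and for cytochrome c they sit below all 3.

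The comparison of the labelled groups was fitted with limma on log2(FPKM + 1) over 14047 genes, with Benjamini-Hochberg adjusted p under 0.05 as the threshold. A log2 change is MSTN+/- minus wild type on that scale. Of the 91 members tested, 15 were higher in the MSTN+/- libraries, where 31.8% of all genes tested were called higher, and 9 were lower, where 12.8% were called lower. As shares of the members these are 16.5% and 9.89%. The median log2 change of the members was 0.00, beside 0.17 for all genes tested. With median-of-ratios scaling, which moved the median of all genes to 0.00, 6 members were higher (23.6% of all genes) and 27 lower (22.7%). The 7 MSTN+/- values were higher than each of the 3 wild-type values for 16 of the 91 members (25.2% of all genes) and lower than each for 4 (6.86%).

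The direction of most members differed with the wild-type libraries used. The log2 change was above 0 for 80 of the 91 members against wild-type replicate 1 alone, and for 31 against replicates 2 and 3. Over all genes tested it was above 0 for 9276 of 13732 and for 7773 of 13965. Against wild-type replicate 1 alone, a fit that assumes this library varies like the 7, 50 members were higher (33.7% of all genes) and 0 were lower in limma (10.8% of all genes), with 55 and 1 at an unadjusted p under 0.05. Against wild-type replicates 2 and 3, 14 members were higher (42.2% of all genes) and 38 lower (31.9%). Without wild-type replicate 2, 3 members were lower (5.71% of all genes), and without replicate 3 also 3 (5.7%). Of the 15 higher calls, 13 held against both choices, and Ndufa8 (adjusted p = 0.0927 in limma against replicate 1 alone) and Atp5l (0.0941 against replicates 2 and 3) did not. Of the 9 lower calls, 9 held against replicates 2 and 3 and 0 against replicate 1 alone, and Ndufs1, Cyc1, Cox5a, Atp5a1, Atp5f1 and Ndufaf6 were lost without replicate 2 and also without replicate 3. With median-of-ratios scaling the 9 lower calls held, and 6 of the 15 higher calls did: Ndufa2, Ndufa13, Ndufb11, Cox4i2, Atp5e and Ndufa4l2. The markers of other cell types moved with these choices. Of 10 fibroblast markers, 5 were called higher and 0 lower against all 3 wild-type libraries, 10 higher and 0 lower against replicates 2 and 3, and 2 higher and 3 lower against replicate 1 alone. Of 10 pluripotent cell markers, 0 were called in limma against all 3 (1 higher and 0 lower at an unadjusted p under 0.05), 1 higher and 8 lower against replicates 2 and 3, and 7 higher and 0 lower against replicate 1 alone. Their part in the members' calls was not tested.

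**Figure D2:**
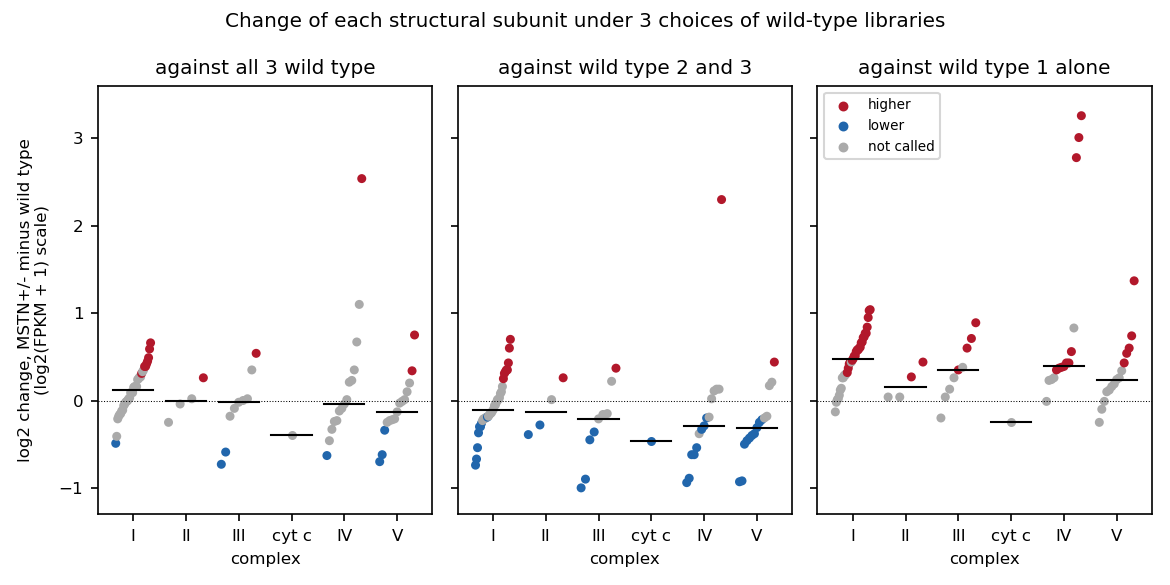
Log2 change, MSTN+/- minus wild type on the log2(FPKM + 1) scale (y axis), of each structural subunit tested, by complex (x axis), in limma fits against all 3 wild-type libraries, against replicates 2 and 3, and against replicate 1 alone. Red points were called higher, blue points lower and grey points neither, and a black line marks the median of a complex, which for complex I is 0.12, -0.11 and 0.47 in the 3 panels.

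Complex I, the NADH dehydrogenase, had 8 of 36 subunits higher and 1 lower, beside 31.8% and 12.8% of all genes. The counts were 8 higher and 8 lower against wild-type replicates 2 and 3, beside 42.2% and 31.9% of all genes. With median-of-ratios scaling they were 3 and 5, beside 23.6% and 22.7%. Against replicate 1 alone the median log2 change was 0.47, beside 0.26 for all genes. The 8 higher calls fell among the accessory subunits, which surround the catalytic core and make up 29 of the 36: Ndufa1, Ndufa2, Ndufa8, Ndufa12, Ndufa13, Ndufb7, Ndufb10 and Ndufb11. The log2 change was 0.45 for Ndufa13, 0.42 for Ndufa12, 0.39 for Ndufb10 and 0.31 for Ndufb7. The median log2 change of the complex was 0.12, and turned to -0.08 with median-of-ratios scaling and to -0.11 against wild-type replicates 2 and 3. Ndufb11 (gene 104130), an accessory subunit of the membrane arm, was at 78.3 FPKM at the lowest, 90.2 at the median and 98.5 at the highest in the MSTN+/- libraries, against 52.0, 55.0 and 62.7 FPKM in wild-type replicates 1, 2 and 3. No library of one group reached the other, and the log2 change was 0.66 ± 0.10 (SE, limma adjusted p = 5.58e-04).

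Ndufa2 (gene 17991), an accessory subunit of the NADH-oxidizing arm, was at 60.0, 62.7 and 72.6 FPKM (lowest, median, highest) in the MSTN+/- libraries, against 50.02, 41.5 and 37.9 FPKM in replicates 1, 2 and 3 of wild type. The groups again did not overlap (log2 change 0.59 ± 0.11, SE, limma adjusted p = 0.00167), and here wild-type replicate 1 was nearest to the MSTN+/- libraries. Ndufa1 (gene 54405), a small membrane subunit, was at 26.4, 35.5 and 40.3 FPKM in the MSTN+/- libraries, against 19.6, 24.5 and 28.8 FPKM, so that MSTN+/- replicate 7 fell within the wild-type range (log2 change 0.49 ± 0.15, SE, limma adjusted p = 0.0247). It was not called when wild-type replicate 2 was left out. Ndufa8, at 0.39 with all libraries, was not called without replicate 3.

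The 7 core subunits, which hold the flavin and the iron-sulfur clusters, included the lower call. Ndufs1 (gene 227197), the large iron-sulfur subunit, was at 22.0, 30.5 and 31.7 FPKM in the MSTN+/- libraries, against 31.7, 47.4 and 45.5 FPKM in wild type (log2 change -0.49 ± 0.15, SE, limma adjusted p = 0.0244). Only MSTN+/- replicate 5 reached the level of wild-type replicate 1, and the change against that replicate alone was -0.13. Ndufv1, which binds NADH, was not called (44.9 ± 3.75 FPKM, SD, n = 7, against 62.7 ± 22.0 FPKM, SD, n = 3), but its log2 change was -0.74 against wild-type replicates 2 and 3 (limma adjusted p = 6.19e-05). It was chosen after its values were seen. Across complex I, mean levels over the 10 libraries ran from 17.5 FPKM for Ndufs4, an accessory subunit, to 152.9 FPKM for Ndufa7. Ndufa7 was at 142 to 166 FPKM among MSTN+/- libraries, against 76.8, 166 and 181 FPKM in wild type.

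In complex II, Sdhc (gene 66052), a membrane anchor, was higher. It was at 84.0, 93.2 and 95.9 FPKM in the MSTN+/- libraries, against 75.4, 75.0 and 77.0 FPKM in wild type, where the SD of 1.09 FPKM was the smallest of the complex. The groups did not overlap (log2 change 0.26 ± 0.08, SE, limma adjusted p = 0.0229), but the change was close to the 0.17 of all genes. It was 0.06 and not called with median-of-ratios scaling, and the call was also lost without wild-type replicate 2 or without replicate 3. Sdha, the flavoprotein that oxidizes succinate, had 70.2 ± 5.01 FPKM (SD, n = 7) against 84.3 ± 14.1 FPKM (SD, n = 3). Sdhb, the iron-sulfur subunit, had 73.6 ± 9.02 FPKM against 72.1 ± 2.24 FPKM, and the other anchor, Sdhd, had 48.7 ± 3.0 FPKM against 51.6 ± 14.9 FPKM. None of these 3 passed the threshold.

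Complex III had 1 of 9 subunits higher and 2 lower, beside 31.8% and 12.8% of all genes. Its median log2 change was -0.02, which was -0.23 with median-of-ratios scaling. Against wild-type replicates 2 and 3, 1 was higher and 4 lower, beside 42.2% and 31.9% of all genes. Against replicate 1 alone the median log2 change was 0.35, beside 0.26 for all genes. Uqcrc1 (gene 22273), a core protein, was at 74.9, 88.0 and 94.0 FPKM in the MSTN+/- libraries, against 100, 173 and 178 FPKM in wild-type replicates 1, 2 and 3 (log2 change -0.73 ± 0.17, SE, limma adjusted p = 0.00626). Every MSTN+/- library was below every wild-type library, although replicate 1 was much nearer than the other two, and against replicate 1 alone the change was -0.20 and not called (limma adjusted p = 0.219). Cyc1 (gene 66445), cytochrome c1, was at 49.4, 62.6 and 65.8 FPKM, against 59.0, 113 and 116 FPKM (log2 change -0.59 ± 0.20, SE, limma adjusted p = 0.0334), a call lost on leaving out MSTN+/- replicate 1, 3, 5, 6 or 7. Wild-type replicate 1 lay within the MSTN+/- range, and against it alone the change was 0.04.

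Uqcrh (gene 66576), the acidic hinge subunit that contacts cytochrome c1, moved the other way: 149, 172 and 199 FPKM in the MSTN+/- libraries, against 94.3, 134 and 137 FPKM in wild type (log2 change 0.54 ± 0.14, SE, limma adjusted p = 0.0111). With median-of-ratios scaling it was 0.34 and not called. The ratio of Uqcrc1 to Uqcrh within a library does not depend on a library-wide scale. It was 0.38 to 0.63 in the MSTN+/- libraries and 1.06, 1.29 and 1.30 in wild-type replicates 1, 2 and 3. This pair was chosen after its values were seen, so its ratio is a description. Uqcrfs1, the Rieske iron-sulfur protein, had the lowest level of the complex, 41.6 to 50.5 FPKM among MSTN+/- libraries, against 38.9, 52.0 and 52.7 FPKM in wild type.

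**Figure D3:**
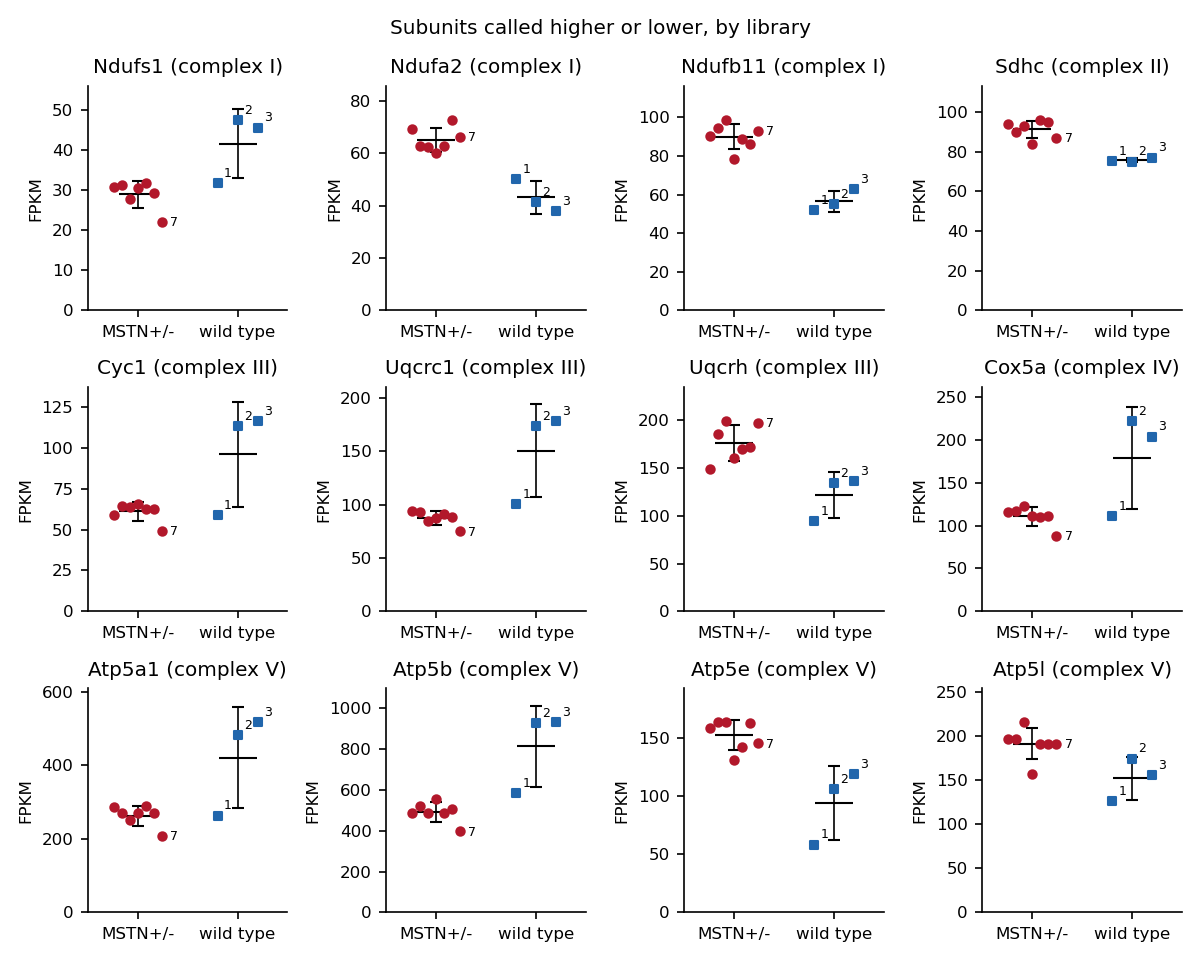
FPKM (y axis, from 0) of 12 subunits called higher or lower, with MSTN+/- libraries as circles from replicate 1 to 7, wild-type libraries as numbered squares, and bars for the mean and SD. For Atp5a1, Cyc1 and Cox5a wild-type replicate 1 lies among the MSTN+/- libraries, while for Ndufa2, Ndufb11, Uqcrh and Atp5e all MSTN+/- libraries lie above all 3 wild-type libraries.

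Complex V had 2 of 15 subunits higher and 3 lower, beside 31.8% and 12.8% of all genes, with a median log2 change of -0.13. Against wild-type replicates 2 and 3, 1 was higher and 10 lower, beside 42.2% and 31.9% of all genes. With median-of-ratios scaling 1 was higher and 8 lower, beside 23.6% and 22.7%. Against replicate 1 alone the median log2 change was 0.24, beside 0.26 for all genes. The lower calls included both subunits that form the catalytic hexamer of F1. Atp5b (gene 11947), the catalytic beta subunit, had the highest level of any member, at 397, 488 and 554 FPKM in the MSTN+/- libraries, against 584, 927 and 932 FPKM in replicates 1, 2 and 3 of wild type. The groups did not overlap (log2 change -0.70 ± 0.16, SE, limma adjusted p = 0.00586), but the change against replicate 1 alone was -0.25 and not called (limma adjusted p = 0.201). Atp5a1 (gene 11946), the alpha subunit, was at 209, 270 and 289 FPKM, against 263, 483 and 518 FPKM (log2 change -0.62 ± 0.20, SE, limma adjusted p = 0.0274), with wild-type replicate 1 inside the MSTN+/- range and a change of -0.01 against it alone.

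Atp5f1, the b subunit of the peripheral stalk, had 96.8 ± 7.44 FPKM (SD, n = 7) against 124 ± 17.7 FPKM (SD, n = 3), for a log2 difference of -0.34 (limma adjusted p = 0.0326) whose call was lost on leaving out MSTN+/- replicate 1, 4, 5 or 6. Atp5e (gene 67126), the epsilon subunit of the central stalk of F1, was higher instead: 132, 159 and 164 FPKM in the MSTN+/- libraries, against 58.4, 106 and 119 FPKM in wild type (log2 change 0.75 ± 0.19, SE, limma adjusted p = 0.0107). No library of one group reached the other. Atp5b was 2.73 to 4.21 times Atp5e in the MSTN+/- libraries, and 10, 8.73 and 7.85 times in wild-type replicates 1, 2 and 3. The ratio of Atp5a1 to Atp5b, by contrast, was 0.487 to 0.596 in the MSTN+/- libraries and 0.451, 0.522 and 0.556 in wild type. Both pairs were chosen after their values were seen.

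Atp5l, the membrane subunit g, had 191 ± 17.3 FPKM against 152 ± 24.4 FPKM, for a log2 difference of 0.34 (limma adjusted p = 0.0479) that was lost without wild-type replicate 1 or 3 and without any MSTN+/- replicate but 4. The 3 genes of the c-ring encode the same mature protein, so reads may be shared between them. Atp5g2 was the highest of them, with 320 ± 20.7 FPKM among MSTN+/- libraries, against 312 ± 105 FPKM in wild type. Atp5g3 had 160 ± 20.0 FPKM against 188 ± 34.7 FPKM, and Atp5g1 had 123 ± 12.2 FPKM against 149 ± 40.2 FPKM. None of the 3 was called, and the order of their levels was the same in both groups. Atp5k, the lowest of the complex, had 93.5 ± 7.68 FPKM against 94.6 ± 22.7 FPKM.

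Complex IV had 1 member higher, an alternative isoform, and 1 lower of 15 tested, beside 31.8% and 12.8% of all genes. Its median log2 change was -0.04, which was -0.29 against wild-type replicates 2 and 3 and 0.39 against replicate 1 alone. Among its 11 constitutive subunits 1 was lower and 0 were higher in limma (1 at an unadjusted p under 0.05). Cox5a (gene 12858), a matrix-side subunit, was at 87.6, 112 and 122 FPKM in the MSTN+/- libraries, against 111, 222 and 203 FPKM in wild type (log2 change -0.63 ± 0.20, SE, limma adjusted p = 0.0253). Wild-type replicate 1 fell within the MSTN+/- range, with a change of -0.01 against it alone. Of the 11, 8 were lower against wild-type replicates 2 and 3, where 31.9% of all genes were called lower. The widest gap between wild-type libraries among the 11 was that of Cox7c, a small membrane subunit, at 179 to 228 FPKM in the MSTN+/- libraries, against 160, 378 and 408 FPKM in wild type. It was called lower against wild-type replicates 2 and 3 (log2 change -0.89, limma adjusted p = 2.86e-05) and higher against replicate 1 alone (0.39, 0.0487).

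The isoform choices were compared as the share of the second isoform in the summed FPKM of a pair, with an exact two-sided permutation test over all 120 assignments of the labels, whose smallest p is 0.00833, and with p adjusted over the 4 pairs. In every library the constitutive form made up most of its pair. Cox4i1, the common form of the regulatory subunit IV, was at 264, 290 and 312 FPKM (lowest, median, highest) in the MSTN+/- libraries, against 214, 334 and 332 FPKM in wild type. Cox4i2 (gene 84682), the form of lung that is known to be induced at low oxygen, was at 1.59, 8.04 and 27.1 FPKM in the MSTN+/- libraries, against 0, 0.71 and 0.57 FPKM in wild-type replicates 1, 2 and 3. Its levels did not overlap between groups, and it was called higher (log2 change 2.54 ± 0.59, SE, limma adjusted p = 0.00629), also against both choices of wild-type libraries, but not with library weights.

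As a share of its pair, Cox4i2 made up 3.01% ± 2.51 (SD, n = 7) in the MSTN+/- libraries and 0.128% ± 0.112 (SD, n = 3) in wild type, a difference of 2.88 percentage points, higher in 7 of 7 libraries (exact permutation p = 0.0667, adjusted 0.133). MSTN+/- replicate 7, at 8.22%, was far above the other 6, at 0.552% to 3.47%. Without it the adjusted p was 0.0476, and as a log2 ratio with a pseudocount of 1 it was 0.0167.

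Cox7a1 (gene 12865), the heart and muscle form of subunit VIIa, was at 2.51, 6.23 and 11.8 FPKM in the MSTN+/- libraries, against 0, 8.57 and 7.41 FPKM in wild-type replicates 1, 2 and 3. Its share of the pair was 9.18% ± 4.86 (SD, n = 7) against 4.95% ± 4.35 (SD, n = 3), a difference of 4.23 points (exact permutation p = 0.242, adjusted 0.322). The groups overlapped, since wild-type replicates 2 and 3 lay inside the MSTN+/- range. Cox7a2, the common form, had 64.8 ± 5.27 FPKM against 84.8 ± 26.5 FPKM and was not called. Cox7a2l, the related factor that joins complexes III and IV, was called higher, with 131, 147 and 187 FPKM in the MSTN+/- libraries against 85.0, 121 and 127 FPKM in wild type (log2 change 0.47 ± 0.15, SE, limma adjusted p = 0.0244). With median-of-ratios scaling it was 0.27 and not called.

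Cox6a2 and Cox8b, the other muscle forms, were near 0 in every library and did not pass the low-value filter. Cox6a2 was at 0 to 0.94 FPKM among MSTN+/- libraries, against 0.70, 0.15 and 0 FPKM in wild type, and its share of the pair was 0.122% ± 0.116 (SD, n = 7) against 0.111% ± 0.151 (SD, n = 3) (exact permutation p = 0.867, adjusted 0.867). Cox8b was at 0.28 to 0.31 FPKM in MSTN+/- replicates 1 to 6 and at 0.84 FPKM in replicate 7, against 0, 0.28 and 0 FPKM in wild-type replicates 1, 2 and 3. These levels overlapped. Its share was 0.161% ± 0.0869 (SD, n = 7) against 0.0335% ± 0.0580 (SD, n = 3), higher in 7 of 7 libraries (exact permutation p = 0.00833, the smallest possible, adjusted 0.0333). The value of 0.28 FPKM was the lowest above 0 listed for this gene. MSTN+/- replicates 2 and 3 and wild-type replicate 2 all had it, so their shares of 0.128%, 0.117% and 0.101% differed only by the level of Cox8a, which was 218, 239 and 278 FPKM there. Without wild-type replicate 1, 2 or 3 the adjusted p was 0.370, 0.111 and 0.407, where 0.0278 is the smallest p before adjustment. The constitutive partners were abundant: Cox6a1 had 321 ± 16.8 FPKM against 277 ± 26.3 FPKM, and Cox8a had 227 ± 9.60 FPKM against 250 ± 48.9 FPKM, neither called.

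**Figure D4:**
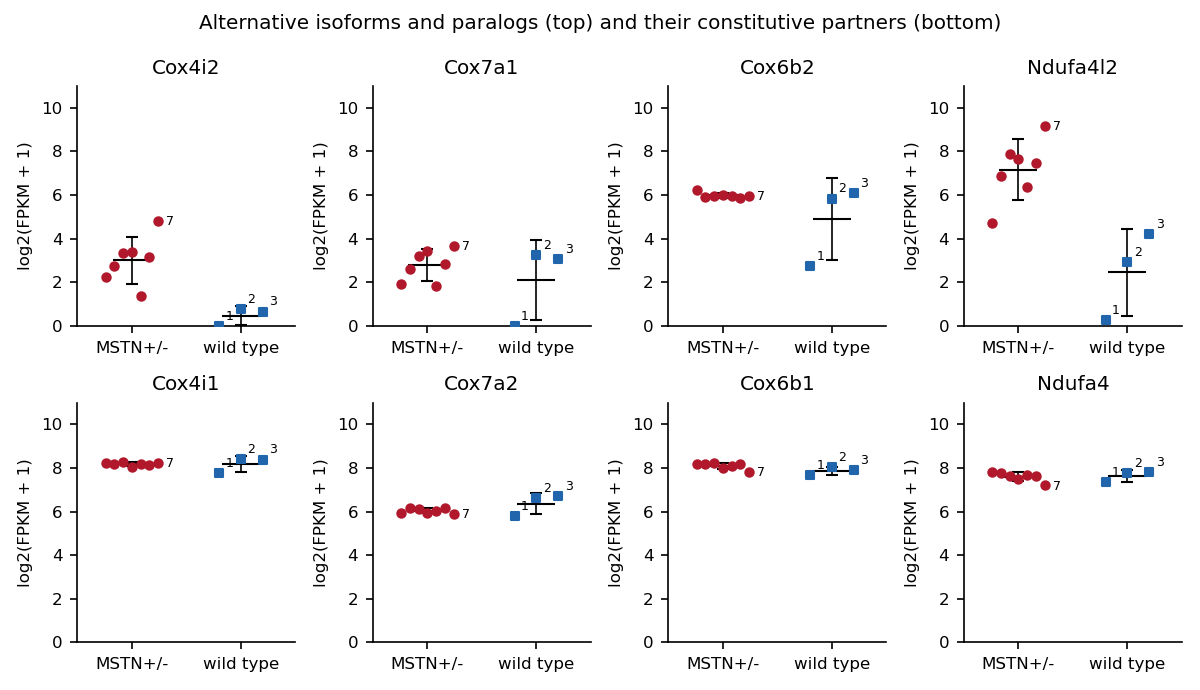
Level as log2(FPKM + 1) (y axis, from 0) of 4 alternative isoforms or paralogs in the top row and of their constitutive partners in the bottom row, with MSTN+/- libraries as circles from replicate 1 to 7, wild-type libraries as numbered squares, and bars for the mean and SD. Cox4i2 and Ndufa4l2 are above all wild-type libraries and highest in MSTN+/- replicate 7, and Cox6b2 is low in wild-type replicate 1 only.

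Ndufa4l2 and Cox6b2 varied more between libraries than their partners Ndufa4 and Cox6b1. Ndufa4l2 (gene 407790), a paralog of Ndufa4 that is known to be induced at low oxygen, had the widest range of the members that had no value at 0. It was at 25.4, 174 and 574 FPKM (lowest, median, highest) in the MSTN+/- libraries, against 0.19, 6.54 and 17.3 FPKM in wild-type replicates 1, 2 and 3 (log2 change 4.71 ± 0.96, SE, limma adjusted p = 0.00327). The groups did not overlap, and among the 7 libraries the highest was 22.6 times the lowest. It was not called with library weights. Ndufa4l2 was 0.113 to 3.94 times Ndufa4 in the MSTN+/- libraries, and 0.00118, 0.0304 and 0.077 times in wild type. Ndufa4 itself had 195 ± 26.2 FPKM against 200 ± 34.6 FPKM. MSTN+/- replicate 7 had the highest Ndufa4l2, Cox4i2, Cox7a1 and Cox7a2l of the 7, and the lowest Cycs, Cyc1, Uqcrc1, Cox5a, Atp5a1, Atp5b and Ndufs1.

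Cox6b2 (gene 333182), known as the testis form of subunit VIb, was at 57.2, 61.1 and 73.2 FPKM in the MSTN+/- libraries, against 5.61, 56.0 and 67.4 FPKM in wild-type replicates 1, 2 and 3. It was thus low in wild-type replicate 1 only, was not called (limma adjusted p = 0.144), and had a log2 change of 0.02 against replicates 2 and 3 and 3.26 against replicate 1 alone (limma adjusted p = 2.09e-07). Cox6b1, its common partner, had 274 ± 25.9 FPKM against 234 ± 29.1 FPKM. Cox7b2 and Cox8c, also known from testis, stayed at 0 to 2.22 and 0 FPKM among MSTN+/- libraries, against up to 0.73 and 1.57 FPKM in wild type. Cox7b had 58.3 ± 3.91 FPKM against 71.8 ± 23 FPKM and was not called.

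Atp5s and Atp5sl, a coupling factor and its paralog, were not called. Against wild-type replicate 1 alone both were higher (log2 change 0.62 and 0.80, limma adjusted p = 0.012 each), and against replicates 2 and 3 Atp5sl was lower (-1.09, 8.40e-05). Among the assembly factors that share the Nduf name, 2 of 7 were lower, beside 12.8% of all genes. Ndufaf2 was at 9.45, 12.2 and 12.7 FPKM in the MSTN+/- libraries, against 15.6, 16.6 and 15.7 FPKM in wild type, without overlap (log2 change -0.45, limma adjusted p = 0.00971). Ndufaf6 was at 3.44, 3.9 and 5.61 FPKM against 4.75, 8.19 and 10.4 FPKM, for a log2 difference of -0.74 (limma adjusted p = 0.0142) that was -0.19 against wild-type replicate 1 alone.

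Genes that build and supply the chain were counted from lists, beside 31.8% higher and 12.8% lower over all genes. Of 34 assembly factors of complexes II to V tested, 14 were higher and 4 lower, with a median log2 change of 0.05. Against wild-type replicates 2 and 3, 15 of 33 were higher and 10 lower, beside 42.2% and 31.9% of all genes. With median-of-ratios scaling 10 were higher and 8 lower, beside 23.6% and 22.7%. Against replicate 1 alone the median log2 change was 0.31, beside 0.26 for all genes. Cox14, a complex IV assembly factor, was at 34.9 to 42.4 FPKM among MSTN+/- libraries, against 18.5, 17.6 and 18.9 FPKM in wild type (log2 change 1.02, limma adjusted p = 2.23e-05), and Uqcc3, a complex III factor, at 17.8 to 23.4 FPKM against 7.47, 10.3 and 12.3 FPKM (0.97, 6.06e-04). Lrpprc, which stabilizes mitochondrial mRNAs, was lower, at 9.60 to 16.7 FPKM against 19.0, 45.6 and 49.9 FPKM (log2 change -1.29, limma adjusted p = 0.00401), though at -0.43 it was not called against replicate 1 alone. Of 14 complex I assembly factors, 1 was higher, Acad9, and 2 lower, both named above. The higher call was lost with median-of-ratios scaling, with quantile normalization, and on leaving out any of MSTN+/- replicates 1 to 6. In this list 0 were higher and 7 lower against wild-type replicates 2 and 3 (1 and 7 at an unadjusted p under 0.05), beside the same 42.2% and 31.9%. Against replicate 1 alone its median log2 change was 0.33. Coenzyme Q synthesis had 4 of 13 higher, such as Coq10a at 5.52 to 7.65 FPKM against 2.60, 2.47 and 2.97 FPKM, and 4 lower, such as Coq7, which hydroxylates the coenzyme Q ring, at 7.94 to 15.7 FPKM against 13.0, 21.5 and 26.5 FPKM. The log2 change of Coq7 against wild-type replicate 1 alone was -0.14. The list's lower calls numbered 1 without replicate 2, beside 5.71% of all genes. Without replicate 3 they numbered 0 (2 at an unadjusted p under 0.05), beside 5.7%.

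Other dehydrogenases and carriers of the inner membrane had 6 of 19 higher and 4 lower, again beside 31.8% and 12.8% of all genes. Their median log2 change was -0.18. Against wild-type replicates 2 and 3, 6 were higher and 12 lower (median -0.51), beside 42.2% and 31.9% of all genes. With median-of-ratios scaling 5 were higher and 7 lower, beside 23.6% and 22.7%. Against replicate 1 alone the median was 0.67, beside 0.26 for all genes. Gpd2, the mitochondrial glycerol phosphate dehydrogenase, was at 6.56 to 11.6 FPKM among MSTN+/- libraries, against 14.5, 29.5 and 28.7 FPKM in wild type (log2 change -1.22, limma adjusted p = 0.00174). Its change was -0.58 against wild-type replicate 1 alone and -1.53 against replicates 2 and 3. Ucp2, an uncoupling protein family member, was at 134 to 243 FPKM against 4.85, 83.2 and 101 FPKM (2.32, 0.0258), with 4.98 against wild-type replicate 1 alone and 0.99 against replicates 2 and 3. Of 19 regulators of mitochondrial biogenesis, 2 were higher and 6 lower, with a median of -0.29. Of the 18 that passed the filter against wild-type replicates 2 and 3, 2 were higher and 13 lower, beside the same 42.2% and 31.9%. Against replicate 1 alone their median was -0.06. Leaving out wild-type replicate 2, or 3, gave 2 lower, beside 5.71% and 5.7% of all genes. The nuclear receptor gene Esrra was at 14.4 to 17.5 FPKM against 8.20, 8.85 and 9.71 FPKM (log2 change 0.78, limma adjusted p = 2.05e-04), and the coactivator gene Pprc1 at 20.0 to 25.6 FPKM against 30.4, 69.2 and 69.6 FPKM (-1.20, 0.00231). The 13 mitochondrially encoded subunits were not analysed here, as they had no row.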

How the data were processed

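The deposited table gives 1 FPKM value per gene and library for 10 libraries, made by the authors and named so per the file headers. RNA was extracted from frozen tissue with Trizol and sequenced on an Illumina platform, per the labels' protocols. No aligner, counter, strand setting, build or filter is named in the sources used here, so reads shared with the many processed pseudogenes of these families could have been split or dropped. FPKM totals ran from 402716 to 464418 per library. Absolute depth is unknown, so no counting intervals are given.

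Members were matched by symbol, and the members and gene lists were chosen with earlier results of these data known. The 14047 genes that reached 1 FPKM in 3 or more libraries were fitted with limma 3.58.1 in R 4.3.3 on log2(FPKM + 1), a scale that understates the change of low genes, with a trended prior, 8 residual degrees of freedom and Benjamini-Hochberg adjustment over all genes, called at 0.05. The script was tested on simulated data. Isoform shares were compared by exact two-sided permutation of library labels, adjusted over 4 pairs. Named were the isoform pairs, paralogs, all subunits of complex II, Cyc1 and Cycs, up to 3 members called in each direction per complex with the largest change, the most and least abundant subunit of each complex, and up to 2 genes per direction of each pathway list, with called genes required to average 5 FPKM or more in either group. Members outside this rule that are named in the text were chosen after their values were seen. Alternatives were other scalings, pseudocounts, filters, priors and library weights, and leaving out each library. No sequence is shown, as none of these rows was matched to a reference used here.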

Additional observations from a re-analysis of the deposited data

Results flagged for a closer look

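Among the 7 MSTN+/- libraries, 1 library stood apart from the other 6 in 13 of 70 quantities examined (named genes, isoform shares and sums of complexes). Chance alone flags about 1 in 20 where values are normally distributed, and many of these quantities are correlated. In 10 of the 13 the library that stood apart was MSTN+/- replicate 7. This library had the highest Ndufa4l2, at 573.5 FPKM with the next library at 238.1, and the highest Cox4i2, at 27.1 FPKM with the next at 9.48. Cox4i2 made up 8.22% of its pair there, with the next library at 3.47%. Cox8b, which was near 0 in every library and did not pass the low-value filter, was at 0.84 FPKM, with the next at 0.31. Its share was 0.358%, with the next at 0.136%. Both of these Cox8b quantities are among the 10.

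MSTN+/- replicate 7 was also lowest of the 7 for electron carriers and their partners. Cycs, which is also the whole cytochrome c sum, was at 17.7 FPKM with the next library at 28.0. Cyc1 was at 49.4 FPKM with the next at 59.0, Cox5a at 87.6 FPKM with the next at 109.5, and Ndufs1 at 22.0 FPKM with the next at 27.7. In other libraries, Cox6b2 was highest in MSTN+/- replicate 1, at 73.2 FPKM with the next at 63.1, and so was Ndufaf6, at 5.61 FPKM with the next at 4.31. Atp5l was lowest in MSTN+/- replicate 4, at 157.2 FPKM with the next at 190.5. Without MSTN+/- replicate 7 the log2 change of Cycs was -0.29 and called lower in limma, while it was -0.39 and not called with all 7.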

How the results depend on the processing

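No paired analysis was possible because the labels carry no replicate numbers and those used here only name libraries. The members' calls depended on the wild-type libraries and on scaling, and the cause was not tested. Members higher numbered 6 with median-of-ratios scaling, 5 with library weights (whose estimation did not converge), 50 against wild-type replicate 1 alone, and 13 to 15 leaving out 1 library; members lower numbered 27, 20, 0 and 3 to 38. In the main fit, 4468 of 14047 genes were higher and 1800 lower. Over all genes, 2874 were higher with quantile normalization, 4862 with library weights and 3445 to 5898 leaving out 1 library. Lower genes numbered 3184 with median-of-ratios scaling, 3851 with quantile normalization, 3368 with library weights and 791 to 4449 leaving out 1 library. With library weights, 5 of 91 members were thus higher beside 4862 of 14047 genes, and 20 lower beside 3368. Lower calls rose with these weights over all genes as well as among the members. Median-of-ratios scaling put the difference of mean log2 summed levels at -0.07 for complex I, -0.21 for II, -0.25 for III and -0.41 for V.

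The Cox4i2 share, as a log2 ratio, differed by 2.53 (pseudocount 1) or 4.18 (0.1), both past the threshold, and by 2.01 to 3.29 points leaving out 1 library. The Cox6a2 share gave -0.09 as a log2 ratio (pseudocount 1) and -0.0446 to 0.0967 points leaving out 1 library. Cox7a1 gave 1.76 to 5.83 points and Cox8b 0.095 to 0.161.

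Of 1081 values for 57 named genes under 19 settings, 909 kept direction and call, 94 lost the call, 31 gained one and 47 changed direction. The turned log2 changes, nearly all of uncalled genes, were these. Against wild-type replicate 1 alone: Cox7a2 0.24, Cox8a 0.23, Cox7b 0.35, Ndufa4 0.26, Atp5g1 0.24, Atp5g3 0.10, Sdha 0.04, Sdhd 0.44, Cyc1 0.04, Ndufs4 0.26, Uqcrfs1 0.26 and Dhodh 0.24. With median-of-ratios scaling: Cox4i1 -0.20, Atp5g2 -0.11, Sdhb -0.19 and Atp5k -0.20. With TPM rescaling: Cox4i1 -0.05, Sdhb -0.04 and Atp5k -0.05. With quantile normalization: Cox4i1 -0.03, Cox7b2 -0.20 and Ndufa4 0.03. With library weights: Cox4i1 -0.18, Cox7a1 -0.27, Atp5g2 -0.16, Ndufa7 -0.13 and Atp5k -0.13. Leaving out 1 library: Cox4i1 -0.20 to 0.12, Cox7a1 -0.38 to 1.25, Ndufa4 -0.19 to 0.06, Atp5g2 -0.22 to 0.26, Sdhb -0.02 to 0.06, Sdhd -0.28 to 0.14, Ndufa7 -0.14 to 0.48, Ndufs4 -0.19 to 0.08, Uqcrfs1 -0.16 to 0.05 and Atp5k -0.20 to 0.14.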

Other observations

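Genes known to be induced at low oxygen were looked at after Ndufa4l2 and Cox4i2 had been seen, so they are given as values with no test. Of 16 such genes, 10 were highest of the 7 MSTN+/- libraries in replicate 7 and 6 in replicate 4. No such count over all genes is given. Markers of other cell types were often highest there too. Of 10 fibroblast markers, 8 were highest of the 7 in replicate 7, and of 10 pluripotent cell markers, 8 in replicate 4. Egln3, an oxygen-sensing prolyl hydroxylase, was at 29.5 to 129.8 FPKM among MSTN+/- libraries, against 4.08, 6.64 and 21.7 FPKM in wild-type replicates 1, 2 and 3. Car9, a carbonic anhydrase, was at 0.40 to 23.7 FPKM against 0.19, 0.26 and 0.36 FPKM. Slc2a1, the glucose transporter GLUT1, did not separate the groups, at 49.4 to 239.9 FPKM against 48.0, 170.7 and 230.2 FPKM. Pdk1 and Kdm3a lay above wild-type replicate 1 and below replicates 2 and 3 in every MSTN+/- library. Pdk1 was at 7.62 to 28.3 FPKM against 3.14, 41.36 and 58.85 FPKM. Kdm3a was at 18.34 to 29.02 FPKM against 7.55, 42.15 and 34.08 FPKM. The summed level of the 16 genes was 275 to 855 FPKM among MSTN+/- libraries, against 282, 418 and 596 FPKM in wild type, so the groups overlapped.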
